A study of Saccharomyces cerevisiae with 28 samples.

Results

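Deletion of CTR1 was followed across the transcriptome of budding yeast cells that carried the H3H113N allele of histone H3. The comparison set the 2 libraries labelled H3H113N-dCtr1-YPD against the 2 labelled H3H113N-YPD, which are 4 of the 28 poly(A)+ RNA libraries of the series. These groups were chosen by their genotype and medium and not by any measured value. Both were Saccharomyces cerevisiae of the BY4741 background, a haploid MATa laboratory strain derived from S288C. Both carried H3H113N, in which asparagine replaces a histidine of histone H3, so the controls had the mutant histone too, and only 1 of the groups lacked CTR1. Cultures were started in YPD, a rich glucose medium, at an optical density (OD600) of 0.2 and grew exponentially for 3 to 4 doublings. The labels state that strains often spent unequal times in culture because they grew at unequal rates, and they do not say whether replicates were separate clones. The p-values below set each difference against the spread between replicates in 26 libraries of 12 groups, the compared ones among them. That spread may be technical. The same deletion in cells with wild-type H3 (dCtr1-YPD against WT-YPD, 2 libraries each, same background, medium and library kit) is given for comparison.

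The H3H113N-YPD libraries held 4313165 and 6089139 counts, and the H3H113N-dCtr1-YPD libraries 4870994 and 6086832. Of 6692 open reading frames (ORFs) in the table, 6592 had a mean RPKM (reads scaled to the ORF's length and to the library's total count) of at least 1 and were tested with edgeR's quasi-likelihood test. An ORF was called at a Benjamini-Hochberg adjusted p under 0.05. Replicate 1 of H3H113N-YPD stood apart from the other 3 libraries in at least 2 respects. It held 0.0248% of its counts in mitochondrially encoded ORFs, against 0.0005% in replicate 2 and 0.0061% and 0.0050% in the deletion libraries. It also held far more reads of the metallothionein genes CUP1-1 and CUP1-2, as described below. The controls differed in copper-uptake genes too, with replicate 1 below replicate 2 in CTR1 (19.9 and 68.3 RPKM), FRE1 (15.75 and 75.1) and REE1 (36.5 and 125). WT-YPD replicates 1 and 2 differed likewise in CTR1 (20.3 and 80.6 RPKM) and FRE1 (19.4 and 59.1). The a-cell genes MFA1, MFA2, STE2, STE6 and BAR1, which are expressed in cells of the labelled MATa mating type, were detected in all 4 libraries. Of 4 marker genes that are mutant in BY4741, URA3, LEU2 and MET17 had no counts, and HIS3 had 83.9 and 80.3 RPKM in the controls and 60.4 and 57.5 RPKM in the deletion libraries.

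Yeast takes up copper mainly through Ctr1, a high-affinity transporter of the plasma membrane, after reductases at the cell surface have converted the ion to its cuprous form. When copper inside the cell is scarce, the transcription factor Mac1 activates genes of this uptake system. It binds short copper-responsive elements upstream of CTR1, of a second transporter gene, CTR3, and of the reductase genes FRE1 and FRE7. Copper in excess acts through another factor, Ace1, which activates the metallothionein genes. Copper serves as a cofactor of cytochrome c oxidase, of the superoxide dismutase Sod1 and of the iron oxidase Fet3.

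The upstream sequences of the Mac1 targets are shown because the called rises off chromosome III were all among them. The 500 bases before each start codon were read from the R64 assembly and searched on both strands for the letters TTTGCTC or TTTGCGC, a core of the copper-responsive element. The form TTTGCGC was added after TTTGCTC alone had found no match upstream of FRE7 and REE1. Of 5986 ORFs with such a window, 12.7% held at least 1 core and 0.85% held 2 or more. CTR1 had 2 cores, FRE1 had 3, FRE7 had 3 of which the last pair overlaps on opposite strands, and IRC7 and REE1 had 1 each. CTR3, which is known to be interrupted upstream by a transposon in S288C strains, had none in its 500 bases. Bases farther upstream were not searched. The core of FRE1 nearest the start codon and the core of FRE7 farthest from it are not shown. The stretches below run 5′ to 3′ on the strand of the gene, all on the plus strand, with the cores in capitals. They lie at chrXVI:785854-785923 for CTR1, chrXII:568261-568324 for FRE1, chrXV:40551-40600 for FRE7, chrVI:264023-264069 for IRC7 and chrX:22887-22933 for REE1.
CTR1: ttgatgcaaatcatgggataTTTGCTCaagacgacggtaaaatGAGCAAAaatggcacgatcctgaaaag
FRE1: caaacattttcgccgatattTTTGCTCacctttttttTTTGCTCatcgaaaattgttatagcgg
FRE7: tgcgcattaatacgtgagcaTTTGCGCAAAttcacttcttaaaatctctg
IRC7: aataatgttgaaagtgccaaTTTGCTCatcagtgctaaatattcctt
REE1: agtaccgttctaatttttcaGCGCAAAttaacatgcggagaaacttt

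CTR1 itself (YPR124W, chrXVI:786208-787428) had RPKM values of 19.9 and 68.3 in H3H113N-YPD replicates 1 and 2 and no read in either deletion library. The groups did not overlap. Against a floor of 3 counts per library, CTR1 was at least 97.2-fold lower in the deletion (edgeR adjusted p = 8.93e-04). That bound was 43.9-fold without H3H113N-YPD replicate 2 and 150.5-fold without replicate 1. YPR123C, an ORF that precedes CTR1 in systematic number and has no position in the annotation used, fell with it. It had 13.9 and 71.4 RPKM in the controls and 0 and 0.378 in the deletion, at least 33.4-fold lower (edgeR adjusted p = 0.0215; 10.9-fold without control replicate 2 and 55.99-fold without replicate 1). Strand was not used in the counting, so reads of an ORF and of one overlapping it cannot be told apart. None of the other 7 neighbours of CTR1 that were tested had an unadjusted p under 0.05.

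In all, 32 of the 6592 ORFs were called (0.485%). Higher levels in the deletion accounted for 28 of these calls (0.425% of ORFs tested) and lower levels for 4 (0.0607%). Of the 28 rises, 25 lay on chromosome III, which holds 2.72% of the ORFs tested. The 3 rises elsewhere were FRE7, IRC7 and REE1, all on the list of Mac1 targets, and the 4 falls were CTR1, YPR123C and the mating genes MFA2 and AGA2. These calls rest on a fit of 26 libraries that share 1 estimate of the spread. A fit of the 8 YPD libraries, or of the 4 compared libraries alone, called none, with 614 and 656 ORFs at an unadjusted p under 0.05, and DESeq2 called 100, among them all 32. Without H3H113N-YPD replicate 1, edgeR called 2 ORFs, CTR1 and YPR123C, and it called 11 without replicate 2 and 7 without either deletion library.

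The 5 Mac1 targets other than the deleted gene all had their lowest deletion value above their highest control value. Such an absence of overlap, upward, was found for 23.6% of all ORFs tested, and 3 of these 5 genes rose past the adjusted threshold. FRE7 (YOL152W, chrXV:40748-42610), a cell-surface metalloreductase gene, had 8.09 and 13.6 RPKM in the controls and 68.0 and 83.6 RPKM in the deletion. Both deletion libraries were far above both controls. The log2 fold change was 2.76 (SE 0.419, edgeR adjusted p = 0.00350), and the call was kept in each fit that left out a library except the one without H3H113N-YPD replicate 1, where the value was 2.44.

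IRC7 (YFR055W, chrVI:264204-265226), which encodes an enzyme that cleaves sulfur-containing amino acids, had 58.0 and 98.9 RPKM in the controls and 365 and 380 RPKM in the deletion. IRC7 rose by 2.20 on the log2 scale (SE 0.435, edgeR adjusted p = 0.0269). REE1 (YJL217W, chrX:23133-23729), a gene linked to the regulation of enolase, had 36.5 and 125 RPKM in the controls and 662 and 986 RPKM in the deletion. The groups of both genes were well separated, although control replicate 1 was the lower one for each. REE1 rose by 3.30 on the log2 scale (SE 0.685, edgeR adjusted p = 0.0311). The IRC7 and REE1 calls were lost in each of the 4 fits that left out a library, at log2 fold changes of 1.87 to 2.63 and of 2.68 to 4.45.

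FRE1 (YLR214W, chrXII:568567-570627), the main cell-surface reductase of copper and iron, had 15.75 and 75.1 RPKM in the controls and 292 and 304 RPKM in the deletion. The deletion libraries were close together and the controls were not. Its log2 fold change of 2.67 (SE 0.700) had an unadjusted p of 0.00129 and did not pass the threshold (edgeR adjusted p = 0.137), although DESeq2 called it (adjusted p = 0.00663). The value was 1.95 without control replicate 1 and 4.19 without replicate 2. CTR3 (YLR411W, chrXII:947253-947978), which is known to be interrupted upstream by a transposon in S288C strains, had 8.62 and 10.9 RPKM in the controls and 13.9 and 13.6 RPKM in the deletion. Its log2 fold change was 0.44 (SE 0.380, edgeR adjusted p = 0.9998).

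**Figure D1:**
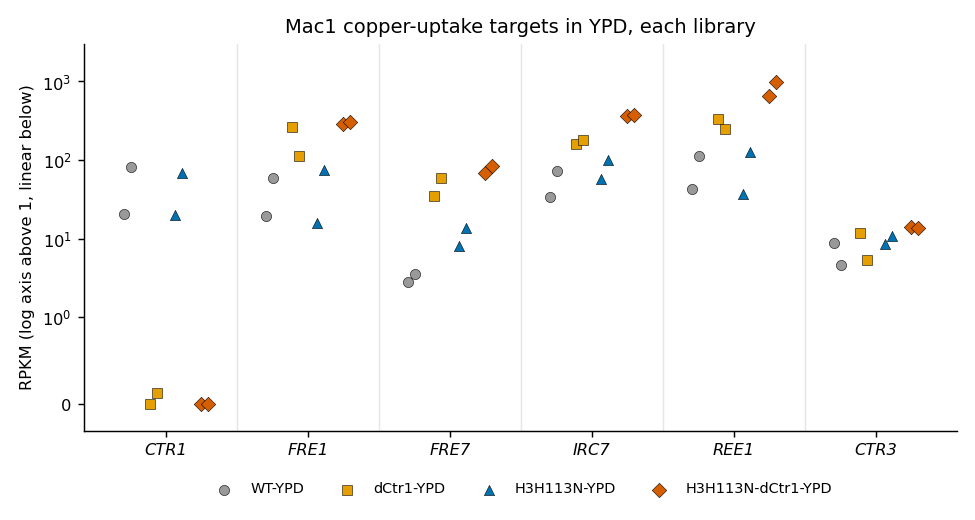
RPKM of the 6 Mac1 copper-uptake targets in each YPD library (points; vertical axis logarithmic above 1 and linear below), by group. CTR1 was at 0 in both H3H113N-dCtr1-YPD libraries, while FRE1, FRE7, IRC7 and REE1 stood above every H3H113N-YPD value there.

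The metallothionein genes CUP1-1 and CUP1-2, which bind copper and are activated by Ace1, were high in a single library of this comparison. CUP1-1 had 2628 RPKM in H3H113N-YPD replicate 1, 195 in replicate 2, and 242 and 216 in the deletion. The deletion values lay between the controls, and the copies share all their sequence, so CUP1-2 (2639, 193, 229 and 208 RPKM) adds no separate measurement. The log2 fold change of CUP1-1 was −2.67 (SE 0.993, edgeR adjusted p = 0.519), and 0.19 without control replicate 1. WT-YPD replicate 1 also stood apart from its replicate 2 in the same genes, at 909 against 132 RPKM of CUP1-1.

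Neither edgeR nor DESeq2 called a gene of copper distribution. Of 13 copper distribution genes, SOD1 (YJR104C, chrX:622550-623014), the copper-zinc superoxide dismutase, had the only unadjusted p under 0.05. SOD1 had 661 and 976 RPKM in the controls and 1379 and 1672 RPKM in the deletion, with no overlap. Its log2 fold change was 0.86 (SE 0.356, edgeR adjusted p = 0.638). For background, an unadjusted p under 0.05 with a higher level was found for 3.35% of all ORFs tested, and with a lower level for 3.11%. Neither the 10 tested cytochrome c oxidase subunits (median log2 fold change −0.34) nor the 9 tested subunits of the cytochrome bc1 complex (−0.27) held any such gene. These medians depended on single controls, with −0.14 for the oxidase without replicate 1 and 0.13 for the bc1 complex without replicate 2.

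Iron uptake is linked to copper because the iron oxidase Fet3 carries copper. Of 12 genes listed under reductive iron uptake, 3 had an unadjusted p under 0.05, all higher in the deletion, and edgeR called none. They were FRE1, which DESeq2 called, the low-affinity metal transporter gene FET4 and the divalent metal transporter gene SMF1. FRE1 is also a Mac1 target, and FET4 and SMF1 are not part of the Fet3 route. The list had a median log2 fold change of 0.14, and 0.53 without control replicate 2. The iron permease gene FTR1 had 108 and 201 RPKM in the controls and 142 and 168 RPKM in the deletion (−0.04, SE 0.556). FET4 had 78.5 and 43.7 RPKM in the controls and 132 and 115 RPKM in the deletion (log2 fold change 0.97, SE 0.360, edgeR adjusted p = 0.519, and 0.60 without control replicate 2). Of 17 genes of siderophore uptake and iron scarcity none had an unadjusted p under 0.05, with a median log2 fold change of 0.16, and 0.42 without control replicate 2. The cell wall mannoprotein gene FIT3 of that list had 47.5 and 109 RPKM in the controls and 158 and 146 RPKM in the deletion (0.91, SE 0.760).

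Genes by which a-cells mate were lower in the deletion. In a MATa cell these genes encode a-factor, its exporter and the receptor for α-factor, and many are activated by the transcription factor Ste12, which binds the pheromone response element. Of 9 tested a-cell genes, 7 had an unadjusted p under 0.05 and a lower level, against 3.11% of all ORFs, and 2 of them passed the adjusted threshold. Their deletion values did not overlap the control values in these 7 genes, a pattern found for 16.9% of all ORFs. The median log2 fold change of the 9 was −1.90, against −0.02 for all ORFs tested, and −1.60 without H3H113N-YPD replicate 1.

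MFA2 (YNL145W, chrXIV:352414-352530), one of the genes for the a-factor precursor, had 614 and 260 RPKM in the controls and 36.9 and 28.1 RPKM in the deletion. Both deletion libraries were far below both controls. MFA2 fell by 3.79 on the log2 scale (SE 0.722, edgeR adjusted p = 0.0235). AGA2 (YGL032C, chrVII:436570-436833), the adhesion subunit of a-agglutinin, had 145 and 101 RPKM in the controls and 18.7 RPKM in each deletion library. AGA2 fell by 2.75 (SE 0.480, edgeR adjusted p = 0.0120). Both calls were kept without H3H113N-YPD replicate 2 and lost without each of the other 3 libraries, where MFA2 was at −3.96 to −3.04 and AGA2 at −2.78 to −2.47.

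The upstream windows of these genes were searched for the pheromone response element, TGAAACA, on both strands. Of the 5986 windows, 12.04% held at least 1 and 0.94% held 2 or more. MFA2, STE2, BAR1 and AGA2 held 2 each and MFA1, STE6 and ASG7 held 1 each, while HMRA1 and HMRA2 held 0. The stretches of the genes that passed the threshold are shown with the element in capitals, at chrXIV:352029-352075 and chrXIV:352199-352245 for MFA2 on the plus strand and at chrVII:437202-437248 and chrVII:437006-437052 for AGA2 on the minus strand.
MFA2 distal: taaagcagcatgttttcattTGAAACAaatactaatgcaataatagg
MFA2 proximal: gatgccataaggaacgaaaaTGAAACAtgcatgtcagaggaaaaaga
AGA2 distal: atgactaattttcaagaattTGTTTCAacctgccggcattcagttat
AGA2 proximal: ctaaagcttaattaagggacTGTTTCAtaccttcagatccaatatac

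The other 5 of these a-cell genes did not pass edgeR's adjusted threshold, and DESeq2 called STE2 and BAR1 among them (adjusted p = 0.0116 and 0.0262). STE2, the α-factor receptor gene, had 367 and 340 RPKM in the controls and 116 and 76.6 RPKM in the deletion (log2 fold change −1.93, SE 0.498, edgeR adjusted p = 0.125). BAR1, which encodes the protease that degrades α-factor, had 112 and 149 RPKM in the controls and 41.4 and 30.7 RPKM in the deletion (−1.90, SE 0.522, edgeR adjusted p = 0.172). MFA1, the other a-factor gene, had 188 and 59.2 RPKM in the controls and 27.7 and 20.7 RPKM in the deletion (−2.38, SE 1.02, edgeR adjusted p = 0.664). The controls of MFA1 lay further apart than those of the receptor gene, and its value was −1.33 without control replicate 1. ASG7, a regulator of pheromone signalling, had a log2 fold change of −1.51 (SE 0.467) and STE6, the a-factor exporter gene, one of −1.07 (SE 0.429). The remaining members, HMRA1 and HMRA2, were higher, at 0.74 and 1.03. They are annotated at the HMR locus of chromosome III, whose ORFs were higher as a whole. Of the 9 tested a-cell genes, 1 had an unadjusted p under 0.05 and a higher level, against 3.35% of all ORFs.

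Of 10 haploid-cell genes, 4 had an unadjusted p under 0.05, all lower, and edgeR called none, while DESeq2 called STE4 and GPA1. STE4, the β subunit of the pheromone-coupled G protein, had 137 and 104 RPKM in the controls and 71.5 and 61.6 RPKM in the deletion (log2 fold change −0.91, SE 0.207, edgeR adjusted p = 0.0694). SST2, which turns that G protein off and was picked here after its value was seen, had 72.8 and 61.6 RPKM in the controls and 23.5 and 19.0 RPKM in the deletion (−1.71, SE 0.390, edgeR adjusted p = 0.0694). DESeq2 gave adjusted p-values of 0.00204 for STE4 and 0.00460 for SST2. Neither gene's groups overlapped. The 8 matched genes of the MATalpha list summed to 106 and 84.3 RPKM in the controls and 117 and 98.6 RPKM in the deletion, and none of the 6 tested had an unadjusted p under 0.05. The 9 matched a-cell genes summed to 1620 and 1060 RPKM in the controls and 442 and 349 RPKM in the deletion.

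**Figure D2:**
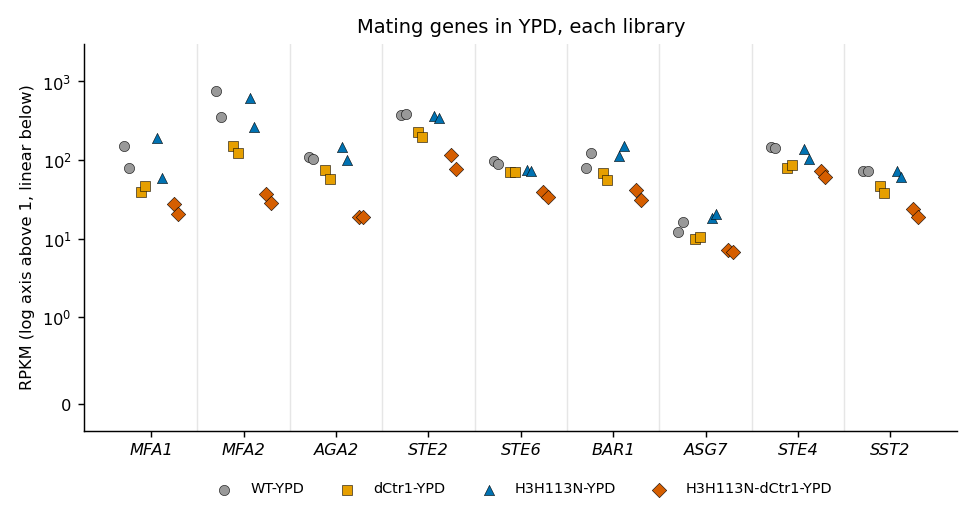
RPKM of 7 a-cell genes and of STE4 and SST2 in each YPD library (points; vertical axis logarithmic above 1), by group. In all 9 genes both H3H113N-dCtr1-YPD libraries lay below both H3H113N-YPD libraries, with AGA2 at 18.7 RPKM in each.

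Levels along the whole of chromosome III were higher in the deletion strain. The median log2 fold change of its 179 tested ORFs (of 185 in the table) was 1.01, a 2.02-fold ratio, with an interquartile range of 0.76 to 1.23. Of these ORFs, 173 were above 0, and 158 (88.3%, against 23.6% of all ORFs) had both deletion libraries above both controls. None had both below, against 16.9% of all ORFs. Relative to the mean of the controls, the chromosome stood at 1.02 and 0.96 in the deletion libraries and at −0.07 and 0.07 in the controls. The chromosome's share of all counts was 1.91% and 2.35% in the controls and 4.42% and 4.69% in the deletion libraries, and 1.91% to 3.12% in the other 26 libraries of the series. Both deletion libraries thus lay above every other library. With 2 libraries against 2, an exact permutation test cannot give a p under 0.333, so none is given for the shift. DNA was not measured, so a gain of the chromosome and greater transcription of its genes cannot be told apart here.

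Values were similar along the chromosome. In 5 equal runs of ORFs from the left end to the right, the median log2 fold change was 1.07, 0.91, 1.01, 0.99 and 1.02. It was 0.95 for the 68 ORFs of the left arm and 1.02 for the 111 of the right arm. Only 6 of the 179 ORFs were not above 0. The lowest of these, YCL019W, had 1.56% of its 50-base windows unique in the genome, and YCL020W had 2.52%. PMP1, YCR024C-B and FUS1 had 100%, and YCR018C-A had no such value.

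**Figure D3:**
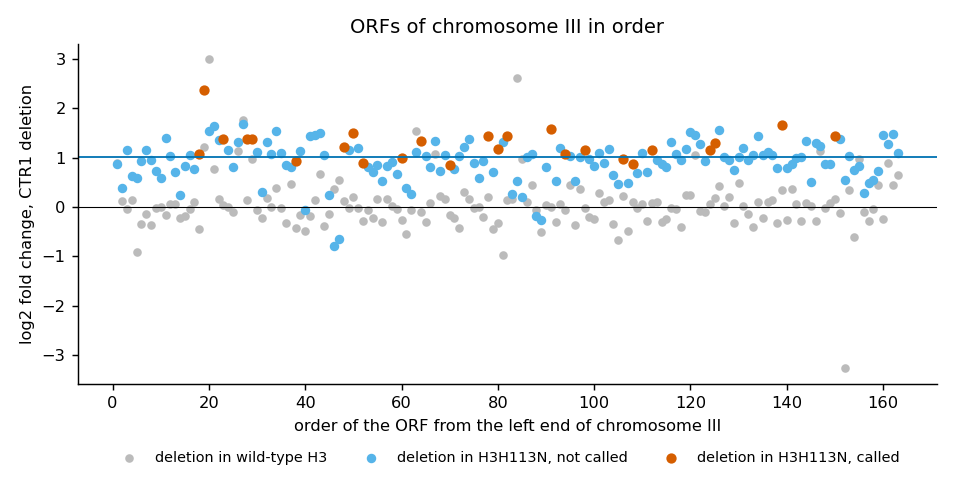
Log2 fold change of each annotated chromosome III ORF tested under the CTR1 deletion, in order from the left end, in H3H113N (blue, called ORFs in orange) and in wild-type H3 (grey). The blue line marks the median of 1.01, around which the H3H113N points lie along the whole length, while the wild-type H3 points lie around 0.

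The 25 called ORFs of chromosome III had log2 fold changes of 0.84 to 2.37. The largest was YCL049C (chrIII:39786-40724), which has no gene symbol in the table, with 53.8 and 47.9 RPKM in the controls and 294 and 251 RPKM in the deletion (2.37, SE 0.467, edgeR adjusted p = 0.0269). TRX3, a mitochondrial thioredoxin gene (chrIII:259578-259961), had 33.8 and 40.6 RPKM in the controls and 109 and 134 RPKM in the deletion (1.66, SE 0.245, edgeR adjusted p = 0.00350). Both genes exceeded the median of their chromosome. NPP1, a nucleotide pyrophosphatase gene, was at 1.57 (SE 0.214), BUD3, which marks bud sites, at 1.49 (SE 0.228), and CDC50, a subunit of a lipid flippase, at 1.45 (SE 0.219). The glycolytic gene PGK1, an abundant transcript of the chromosome, had 1991 and 3558 RPKM in the controls and 6342 and 8518 RPKM in the deletion and was not called by edgeR (1.38, SE 0.344, edgeR adjusted p = 0.111) but was by DESeq2 (adjusted p = 0.00373). When each chromosome was centred on its own median, no ORF of chromosome III was called. YCL049C was then at 1.35 (edgeR adjusted p = 0.998) and TRX3 at 0.65.

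Centring left 3 calls in the genome (0.0455% of ORFs), FRE7 at 2.79 (edgeR adjusted p = 0.00887), AGA2 at −2.72 (edgeR adjusted p = 0.0443) and CTR1. IRC7 was then at 2.20 (edgeR adjusted p = 0.0754), REE1 at 3.22 (0.120) and MFA2 at −3.76 (0.0647), so their values moved little while their adjusted p-values crossed the threshold.

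Chromosomes II and V also shifted, by less. Chromosome II had a median log2 fold change of −0.34 over 459 ORFs, and 206 of them (44.9%, against 16.9% of all ORFs) had both deletion libraries below both controls. Chromosome V had a median of 0.22 over 326 ORFs, and 159 (48.8%, against 23.6% of all ORFs) had both deletion libraries above both controls. The other 13 nuclear chromosomes had medians between −0.07 and 0.09. The controls of this comparison were themselves not level with wild-type H3. Relative to the mean of WT-YPD, chromosome II stood at 0.39 and 0.42 in the H3H113N-YPD libraries and at 0.13 and 0.11 in the deletion libraries. Chromosome V stood at 0.56 and 0.48 in H3H113N-YPD and at 0.72 and 0.76 in the deletion, and chromosome III at 0.11 and 0.19 and then at 1.15 and 1.10. The lower values of chromosome II in the deletion strain were thus closer to wild-type H3 than those of its controls, and the values of chromosomes III and V were farther from it.

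**Figure D4:**
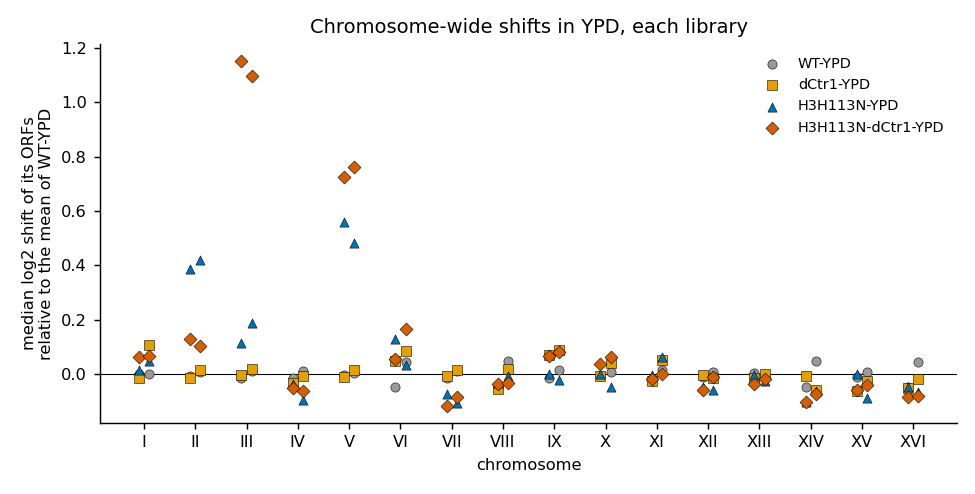
Median log2 shift of the tested ORFs of each nuclear chromosome in each YPD library (points), relative to the mean of the WT-YPD libraries. Chromosome III stood at 1.15 and 1.10 in the H3H113N-dCtr1-YPD libraries and at 0.19 or lower in the others, and chromosomes II and V were raised in libraries with H3H113N only.

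Several gene groups held members at an unadjusted p under 0.05 but few or no calls. Of the 139 cytosolic ribosomal protein genes, 128 had both deletion libraries below both controls, against 16.9% of all ORFs. The median of these genes was −0.51, 28 of them had an unadjusted p under 0.05 and a lower level, and none was called by edgeR and 1 by DESeq2, RPL19B. The median stayed between −0.64 and −0.39 when a library was left out and between −0.51 and −0.46 under the other scalings. RPL32, with 6104 and 4639 RPKM in the controls and 2948 and 2650 RPKM in the deletion, was at −0.99 (SE 0.338, edgeR adjusted p = 0.395). RPL32 lies on chromosome II, as do 10 of the 139 genes, and was at −0.68 with each chromosome centred. The median of the 139 genes was then −0.50. Of 88 ribosome assembly factors, 1 had an unadjusted p under 0.05, and their median was −0.08, with −0.32 without control replicate 1 and 0.22 without replicate 2.

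Lysine synthesis, which is known to fail in cells that lack Sod1, was measured through 9 genes with a median log2 fold change of 0.66. Of these, 4 had an unadjusted p under 0.05, all higher. EdgeR called none of them and DESeq2 called LYS20, LYS1 and LYS12 (adjusted p = 0.0477, 0.0477 and 0.0487). The median was 0.27 without deletion replicate 1 and 0.96 without replicate 2. LYS20, a homocitrate synthase gene, had 61.1 and 152 RPKM in the controls and 432 and 250 RPKM in the deletion (1.63, SE 0.481, edgeR adjusted p = 0.237). LYS20 has a near copy, LYS21 (1.04, SE 0.373), and 62.2% of its windows are unique. LYS1, the last enzyme of the pathway, had 42.6 and 71.6 RPKM in the controls and 208 and 88.0 RPKM in the deletion (1.32, SE 0.390, edgeR adjusted p = 0.239). The groups did not overlap in either gene, but the deletion replicates lay far apart, and without deletion replicate 1 the value of LYS1 was 0.61.

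Of 20 phosphate-regulon genes, which respond to phosphate scarcity, 4 had an unadjusted p under 0.05 and a lower level, with a median of −0.43 and no call by edgeR or DESeq2. The median was −0.22 without deletion replicate 1, −0.28 without control replicate 2 and −0.83 without deletion replicate 2. PHO84, the high-affinity phosphate transporter gene, had 261 and 887 RPKM in the controls and 86.6 and 267 RPKM in the deletion (−1.73, SE 0.616, edgeR adjusted p = 0.457), and its groups overlapped. Without control replicate 2 the value of PHO84 was −0.60, and −1.12 and −2.80 without deletion replicates 1 and 2. VTC3, of the complex that makes polyphosphate, had 161 and 178 RPKM in the controls and 58.1 and 111 RPKM in the deletion (−1.04, SE 0.336, edgeR adjusted p = 0.315), and −0.63 without deletion replicate 1. Of 24 genes of superoxide and peroxide defence, 7 had an unadjusted p under 0.05, all higher, and 1 was called, TRX3 on chromosome III, where 4 of the 24 lie. Of 11 histone genes, 3 had an unadjusted p under 0.05 and a lower level. Their median was −0.44, and −0.20 with each chromosome centred or without control replicate 2, and 4 of the 11 lie on chromosome II. The 31 general stress genes had a median of 0.17, which ran from −0.07 to 0.50 without control replicates 2 and 1, and none had an unadjusted p under 0.05.

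The deletion was made in wild-type H3 as well, and the comparison there shares no library with that in H3H113N. It gave 3 calls (0.0455%), of which FRE7 and CTR1 were also called in H3H113N. There, 2.17% of ORFs had an unadjusted p under 0.05 and a higher level, and 0.971% a lower one. FRE7 rose from 2.79 and 3.55 RPKM in WT-YPD to 35.3 and 59.6 RPKM in dCtr1-YPD, by 3.86 on the log2 scale (SE 0.457, edgeR adjusted p = 4.52e-04). Its level was lower there in the controls and in the deletion than in the H3H113N strains. IRC7 had a log2 fold change of 1.61 (SE 0.429) in wild-type H3, REE1 1.80 (SE 0.650) and FRE1 2.13 (SE 0.687), against 2.20, 3.30 and 2.67 in H3H113N. The a-cell genes had a median of −0.76 there, against −1.90, with MFA2 at −2.06 (SE 0.642) and AGA2 at −0.76 (SE 0.437). LYS20 was at 1.24 and LYS1 at 1.23, close to their values in H3H113N, and the median of the ribosomal protein genes was −0.38. PHO84 was at 0.05 (SE 0.599) in wild-type H3. It had 315 and 1005 RPKM in WT-YPD and 1165 and 363 RPKM in dCtr1-YPD, so its groups overlapped. Its difference between the backgrounds had an edgeR unadjusted p of 0.052 and an adjusted p of 0.9998. The general stress genes had a median of 1.40 in wild-type H3 against 0.17. HSP12 of that list overlapped there (26.5 and 4.72 against 263 and 14.7 RPKM), while HOR7 did not (126 and 62.7 against 197 and 504 RPKM). In H3H113N, HSP12 had 47.1 and 304 RPKM in the controls and 488 and 220.5 RPKM in the deletion. HOR7 had 229 and 549 RPKM in those controls and 239.5 and 461 RPKM in the deletion. For both genes the H3H113N controls were above both WT-YPD libraries, and the part of this in the medians was not tested. Medians of the 16 nuclear chromosomes lay between −0.05 and 0.07 in wild-type H3.

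Whether the effect of the deletion differed between H3H113N and wild-type H3 was tested directly as an interaction. No ORF was called by edgeR (0%), 149 had an unadjusted p under 0.05, 73 of them on chromosome III, and DESeq2 called 15, of which 14 lie on chromosome III. The 5 smallest p-values were those of NPP1, CDC10, BIK1, APA1 and PET18, all on chromosome III, with differences of 1.37 to 2.28 on the log2 scale and edgeR adjusted p of 0.188 to 0.205. CDC10, a septin gene, had 112.7 and 117 RPKM in H3H113N-YPD, 303 and 298 RPKM in H3H113N-dCtr1-YPD, 122 and 101 RPKM in WT-YPD and 103 and 111 RPKM in dCtr1-YPD. Its levels in H3H113N-dCtr1-YPD were above those of the 6 other libraries, which overlapped one another. Off the shifted chromosomes, AGA2 differed between the backgrounds by −1.998 (unadjusted p = 0.00591, edgeR adjusted p = 0.9998), MFA2 by −1.73 and FRE7 by −1.11, none past the threshold. The 5620 ORFs of the 13 chromosomes without a shift include the deleted gene CTR1 (−10.87 in H3H113N and −9.17 in wild-type H3) and YPR123C (−7.33 and −5.90). Neither was left out. Across the 5620 ORFs, the effects in the H3 backgrounds correlated with a Pearson r of 0.40 and a Spearman rho of 0.41. This describes ORFs, which are not independent replicates, and the strains share a laboratory, medium and kit. The replicate differences of WT-YPD and H3H113N-YPD, the controls of these effects, correlated at 0.654 across the ORFs, and those of the deletion groups at 0.223. The part of this in the correlation and in the interaction was not tested.

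**Figure D5:**
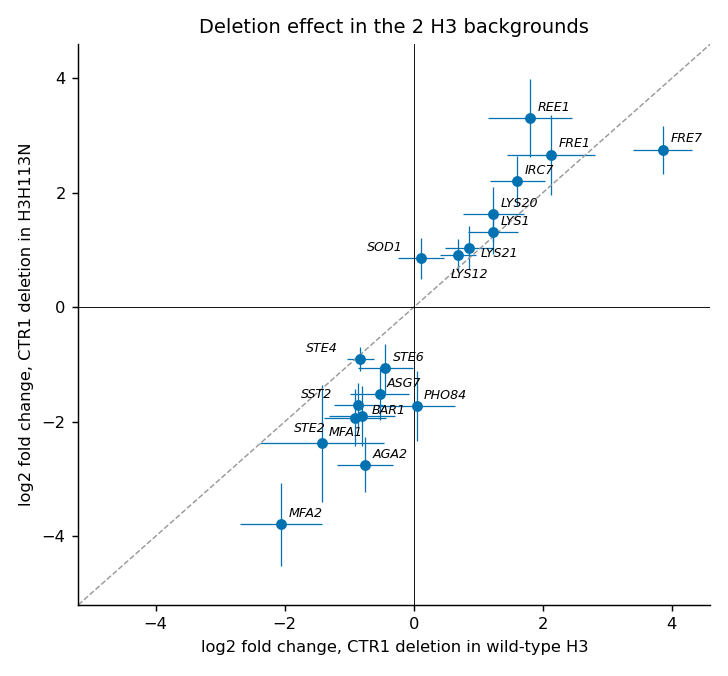
Log2 fold change under the CTR1 deletion in H3H113N (vertical) and in wild-type H3 (horizontal) for 19 named genes off chromosome III, with standard errors as bars and equality as the dashed line. The Mac1 targets shown, FRE1, FRE7, IRC7 and REE1, lie in the upper right, and CTR1 and CTR3 are not shown. The mating genes lie in the lower left, with MFA2 at −3.79 against −2.06. PHO84 lies at −1.73 (SE 0.616) against 0.05 (SE 0.599).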

How the data were processed

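Per the labels, total RNA went through a DNase step, and stranded poly(A)+ libraries were made with the KAPA kit. The authors did not use strand. The submitters' processing notes name TopHat2 2.0.9 and build R64 (sacCer3) with no role or order, and the counting tool is not given in the sources used here. The authors deposited whole-number read counts and RPKM values per ORF. The deposited RPKM could be recomputed from the counts, ORF lengths and library totals (largest relative deviation 3.8e-09).

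Counts were fitted with edgeR 4.0.16 (TMM, quasi-likelihood test, R 4.3.3) to the 26 libraries of the 12 replicated groups, with a common biological coefficient of variation of 29.5%. Adjusted p-values are Benjamini-Hochberg over all ORFs tested. SEs were derived from the F statistic and the fold change. Fold changes are relative to the TMM scaling, under which the median of all ORFs was −0.02, and 0.03 with library totals. Replicates differed by more than counting noise (chi-square per degree of freedom 17.7 to 83.3), so none was merged. Depth limits precision as counting error only. Alternatives were limma 3.58.1 on log2(RPKM + 1) or log2(RPKM + 0.1), DESeq2 1.42.0, other scalings and filters, fewer libraries, a replicate block and each library left out. Scripts were tested on simulated data.

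The genes and lists were chosen with earlier results of these data known. Named genes are the Mac1 targets, up to 10 rises and 10 falls off chromosome III and 5 rises on it among called ORFs of at least 5 RPKM without overlap, up to 4 called or 2 most abundant members of each list, and the 5 smallest interaction p-values. Others were named after their values were seen, among them STE2, BAR1, MFA1, ASG7, STE6, SST2, LYS1, LYS21, PGK1, FET4, SMF1 and VTC3. Coordinates are of R64, and 5375 of 5377 ORF starts compared were equal to the reference. All called ORFs except YPR123C, which has no position there, had 100% unique 50-base windows.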

Additional observations from a re-analysis of the deposited data

Results flagged for a closer look

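BIK1, APA1 and PET18 on chromosome III were named for having some of the smallest p-values of the difference between H3 backgrounds, so their opposite signs describe genes picked for a difference and add no evidence of one. In each background, every deletion library lay beyond every control library for these genes. Of the 179 tested ORFs of chromosome III, 158 (88.3%, against 23.6% of all ORFs) had such a rise in H3H113N. In wild-type H3, 20 of the 179 had such a fall and 37 such a rise. Such falls in wild-type H3 were also found for 44 of 459 ORFs of chromosome II and 36 of 326 of chromosome V. BIK1, a microtubule-binding protein gene, had a log2 fold change of 0.94 in H3H113N and −0.43 in wild-type H3. APA1, which encodes a phosphorylase of dinucleotides, had 1.07 and −0.45, and PET18 had 1.31 and −0.96. In H3H113N edgeR called BIK1 and APA1 but not PET18 (adjusted p = 0.0898), and in wild-type H3 it called none of them. The test of the difference itself gave edgeR adjusted p-values of 0.188, 0.188 and 0.205, so none passed the threshold. Their chromosome had a median of 1.01 in H3H113N, and with each chromosome centred the values there were −0.07, 0.05 and 0.31. The part of the chromosome-wide shift in these differences was not tested.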

How the results depend on the processing

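The 32 calls in H3H113N numbered 30 to 32 under median-ratio scaling, library totals, other filters on low values and limma. They numbered 100 with DESeq2, 3 with each chromosome centred, and 0 in the fits of the 8 YPD libraries, of the same libraries with each chromosome centred (chosen after seeing the data; 424 at an unadjusted p under 0.05) and of the compared groups only. Leaving out a library gave 2 to 11. The 3 calls in wild-type H3 became 7 with DESeq2, 5 with limma at a pseudocount of 0.1 and 0 in those 3 smaller fits (399, 396 and 219 at an unadjusted p under 0.05), and 2 to 3 when a library was left out. The 0 calls of the difference became 15 with DESeq2 and 1 without dCtr1-YPD replicate 2.

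Replicate differences of the compared groups had a correlation of −0.07, and those of the other YPD pairs ran from −0.474 to 0.654, so the numbers are not taken to pair them. With a replicate block, 80 ORFs were called in H3H113N (all 32 among them, and FRE1, STE2, STE4, STE6, SST2, LYS12, RPL32 and PGK1 of the genes named) and 5 in wild-type H3. With the block in the 8 YPD libraries alone (chosen after seeing the data) there were 2 in each background.

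The chromosome medians moved with library totals to −0.29 for II and 0.27 for V. Leaving out a library gave −0.35 to −0.26 for II, 0.96 to 1.11 for III and 0.18 to 0.25 for V. Without H3H113N-YPD replicate 1, CUP1-1, CUP1-2 and OLI1 reversed, to 0.185, 0.13 and 2.11, and without replicate 2 they were at −3.57, −3.65 and −5.56. BIK1 reversed with each chromosome centred, to −0.074, or −0.044 in the 8 YPD libraries. The cause was not tested. Of the 15 called genes that are named, 3 kept their call with centring and 0 in the smaller fits, which have fewer samples.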

Other observations

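Other gene groups gave values in H3H113N without calls by edgeR or DESeq2. The 12 genes of the COS family, which are subtelomeric and of similar sequence, had a median log2 fold change of 0.68 under the CTR1 deletion, and 10 of them had both deletion libraries above both controls, against 23.6% of all ORFs, while the median in wild-type H3 was 0.34. COS1 had 35.8 and 31.2 RPKM in the controls and 53.7 and 70.5 RPKM in the deletion (0.85, SE 0.373, edgeR adjusted p = 0.691), but 28.9% of its 50-base windows are unique, so reads of the family may be shared among its members. The 24 seripauperin genes had a median of 0.63, and 0.30 without deletion replicate 2, and none with an unadjusted p under 0.05.

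The 8 listed mitochondrially encoded ORFs summed to 205 and 1.12 RPKM in the H3H113N controls, and 2 of them passed the filter on low values. One of these, OLI1, an ATP synthase subunit gene, had 170 and 0.711 RPKM in those controls and 4.44 and 2.85 RPKM in the deletion. WT-YPD showed the same split, at 83.8 and 0.842 RPKM, with 2.70 and 2.03 RPKM in dCtr1-YPD.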
